A study of Mus musculus with 9 samples.

Results

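The 34 genes described here encode the enzymes that turn glucose into lactate, the carriers that move glucose and lactate across the cell membrane, and the regulators that couple this path to oxygen. They were taken from the deposited table by gene symbol alone, and all 34 were found among its 55385 gene rows. The 17 glycolytic enzymes run from the hexokinases Hk1 and Hk2 to the lactate dehydrogenases Ldha and Ldhb. The 4 transporters are the glucose carriers Slc2a1 and Slc2a3 and the lactate carriers Slc16a1 and Slc16a3. The 13 regulators are 3 enzymes that set the flux (Pdk1, Pfkfb3 and Pfkfb4), 5 targets of the hypoxia-inducible factors (Adm, Vegfa, Bnip3, Ankrd37 and Car9) and 5 genes of oxygen sensing (Hif1a, Epas1, Hif3a, Egln1 and Egln3). Of the 34, 33 passed the filter on low values (at least 0.5 FPKM, fragments scaled for transcript length and library size, in at least 3 of the 9 libraries). The exception was Car9. Aldoa had 2 rows, of which the one with the higher mean count was used.

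Total RNA depleted of ribosomal RNA was sequenced from the ischemic hemisphere of male C57BL/6 mice aged 8 to 10 weeks, with 3 libraries in each of 3 groups. In the celastrol group the middle cerebral artery was closed by a filament for 90 min (tMCAO, transient middle cerebral artery occlusion, a model of ischemic stroke), and celastrol, a plant triterpenoid, was injected into the peritoneum at 4.5 mg/kg as blood flow returned. The tMCAO group had the same occlusion and reperfusion without celastrol, and the sham group had the operation without the occlusion. The sources used here do not say whether the tMCAO and sham groups received a vehicle, when after reperfusion the tissue was taken, or how many animals make up a library. The p-values therefore measure the spread between these libraries only. Each group enters 2 of the comparisons between pairs of groups, so their results share libraries and are not independent.

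Estimated counts summed to between 60392960 and 75158625 per library. The first principal component of all genes tested, with 31% of the variance, placed the tMCAO libraries and celastrol replicates 1 and 3 at 16.99 to 58.1 and the sham libraries at -58.7 to -25.8. Celastrol replicate 2 was at -23.2, next to the sham libraries. Some values of Hk2 and Slc16a1, and the counts of genes called, are therefore also given without it. The celastrol values of the other genes include it. Marker genes of neurons, astrocytes and oligodendrocytes were present in every library, as the labelled tissue requires: summed FPKM was 934 to 1766 in the celastrol group, 976 to 1236 in the tMCAO group and 1192 to 1468 in the sham group for 6 neuronal markers.

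Glycolysis splits glucose into pyruvate in the cytosol, and when oxygen is short the pyruvate is reduced to lactate, which is exported. The hypoxia-inducible factors (HIF) are transcription factors whose alpha subunits (Hif1a, Epas1, Hif3a) are marked for breakdown by oxygen-dependent prolyl hydroxylases (Egln1, Egln3), so the proteins accumulate when oxygen falls, largely without a change in their mRNA. They bind the core letters ACGTG or GCGTG near many genes of glycolysis and of blood vessel growth. The brain depends on glucose delivered by the carrier Slc2a1 in capillaries and astrocytes and by Slc2a3 in neurons, and lactate passes between its cells through Slc16a1 and, in astrocytes, Slc16a3.

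The promoters of 5 of the genes are printed because they set genes with large differences between tMCAO and sham libraries beside abundant enzymes with small ones. Each is the 250 bases before the start of the gene in RefSeq (GRCm38.p6), 5′ to 3′ on the gene's own strand, with capitals on each ACGTG or GCGTG, the letters of the HIF core, and on CACGT or CACGC, the same letters read on the other strand. Hk2, Slc16a3 and Adm are the hexokinase, lactate carrier and HIF target with the largest differences among the genes that passed the filter, and Pgk1 and Aldoa are enzymes of high and even level.
Hk2 (chr6:82774455-82774704, minus strand): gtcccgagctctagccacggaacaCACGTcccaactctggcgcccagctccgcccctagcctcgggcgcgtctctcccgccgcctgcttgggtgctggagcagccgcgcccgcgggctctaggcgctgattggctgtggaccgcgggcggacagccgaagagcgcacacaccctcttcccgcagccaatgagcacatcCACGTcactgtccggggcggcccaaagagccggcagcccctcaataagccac
Slc16a3 (chr11:120948817-120949066, plus strand): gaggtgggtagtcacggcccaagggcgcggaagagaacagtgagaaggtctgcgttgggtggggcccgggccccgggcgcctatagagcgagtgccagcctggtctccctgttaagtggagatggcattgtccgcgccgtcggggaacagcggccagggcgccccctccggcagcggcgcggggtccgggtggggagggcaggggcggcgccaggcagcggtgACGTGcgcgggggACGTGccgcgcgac
Adm (chr7:110627407-110627656, plus strand): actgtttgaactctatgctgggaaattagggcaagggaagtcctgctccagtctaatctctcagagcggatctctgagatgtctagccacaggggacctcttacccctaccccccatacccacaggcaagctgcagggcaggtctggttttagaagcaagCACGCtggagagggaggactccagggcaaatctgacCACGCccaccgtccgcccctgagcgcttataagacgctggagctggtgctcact
Pgk1 (chrX:106186850-106187099, plus strand): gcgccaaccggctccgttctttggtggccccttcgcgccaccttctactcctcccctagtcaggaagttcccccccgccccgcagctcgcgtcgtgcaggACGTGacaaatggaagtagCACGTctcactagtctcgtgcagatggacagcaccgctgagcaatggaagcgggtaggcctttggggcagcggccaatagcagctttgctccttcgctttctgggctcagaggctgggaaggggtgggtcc
Aldoa (chr7:126800448-126800697, minus strand): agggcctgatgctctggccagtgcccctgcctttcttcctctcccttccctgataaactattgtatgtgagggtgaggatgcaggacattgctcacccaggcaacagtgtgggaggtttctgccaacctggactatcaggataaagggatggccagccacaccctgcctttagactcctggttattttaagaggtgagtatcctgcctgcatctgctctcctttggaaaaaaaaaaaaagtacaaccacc
Hk2, Slc16a3 and Pgk1 each held 2 matches to ACGTG, Adm held 2 matches to GCGTG, and Aldoa held no match in this window. The RefSeq start of Slc16a3 lies 587 bases, and that of Aldoa 304 bases, from the gene start in the deposited table. Of the 32 genes with a promoter in the RefSeq table (Epas1 and Slc2a3 were not matched), 25 held at least 1 match on either strand, or 78.1%, against 55.6% of the promoters of 11366 genes tested. By role, 11 of 17 enzymes (64.7%), 3 of 3 transporters and 11 of 12 regulators (91.7%) held a match. The most matches over both strands, 5, were in Ldha and Bnip3, whose log2 fold changes of tMCAO against sham were 0.07 and 0.22. Both hold CACGTG, which matches on each strand and so counts as 2, and their rank rests in part on this. The RefSeq starts of Ldha and Hif1a lie 4329 and 6492 bases from the deposited gene starts. A match is a run of letters and does not show binding, and Pgk1, with 2 matches, differed little between the groups. Whether matches go with the differences between groups was not tested.

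The comparison of tMCAO with sham asks what occlusion and reperfusion changed. The share of these genes at an unadjusted edgeR p under 0.05, in either direction, was near that of all genes tested. Hk2 was 3.28-fold, the HIF target Adm 3.70-fold and the lactate exporter Slc16a3 2.36-fold as high in tMCAO as in sham libraries, with no overlap between the 3 libraries of each group. None of the 33 tested genes passed an adjusted p of 0.05 (edgeR quasi-likelihood test, Benjamini-Hochberg adjustment over 16982 genes), and neither did any other gene of the table (0% called). At an unadjusted edgeR p under 0.05, 5 of 33 were higher in tMCAO libraries (Hk2, Adm, Slc16a3, Slc16a1 and Hif1a) and 0 lower, together 15.2%, against 14.9% of all genes tested in either direction and 8.56% higher. The same 5 genes had tMCAO libraries all above the sham libraries in CPM (counts scaled to library size, with TMM), as had 12.4% of all genes, and 1, Pgam1, had them all below, as had 11.1%. DESeq2 called 3 of the 33 higher at its adjusted p of 0.05 (Hk2, Slc16a3 and Adm), where it called 3.28% of all genes higher. As this is whole tissue, more RNA per cell and more cells of a type cannot be told apart in any of these values.

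**Figure D1:**
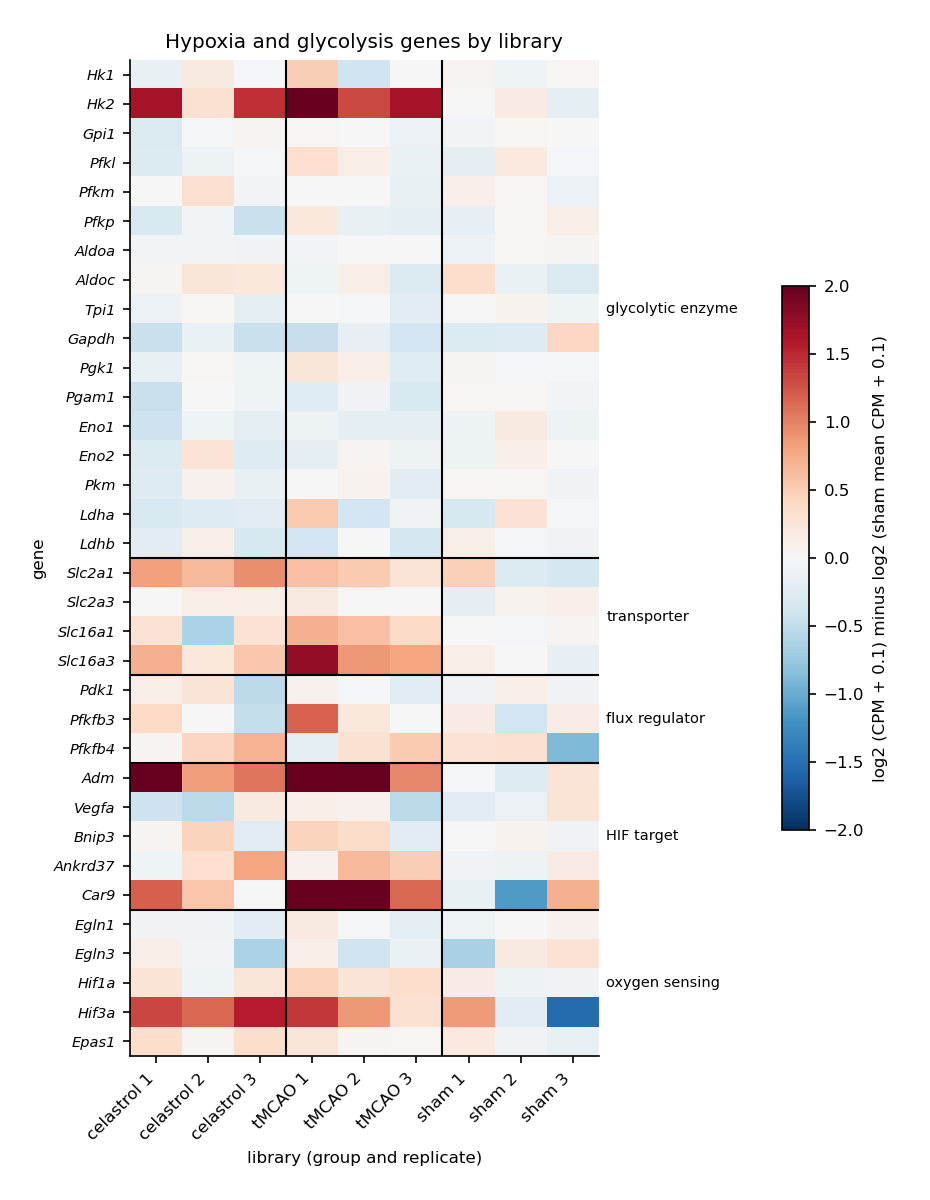
Level of the 34 genes (rows, grouped by role) in each of the 9 libraries (columns: celastrol, tMCAO, sham), as log2 (CPM + 0.1) minus the log2 of the sham mean; red is above and blue below sham. Hk2, Adm, Slc16a3 and Car9 are red in the tMCAO columns, most enzyme rows are pale throughout, and celastrol replicate 2 is paler than the other occluded libraries for Hk2.

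The glycolytic enzymes were abundant and nearly level. Over the 17 enzymes the median of their mean levels was 119 FPKM. By single rows the aldolase Aldoa led at 381 FPKM, then the lactate dehydrogenase subunit Ldhb at 239 FPKM and pyruvate kinase Pkm at 206 FPKM. Summed over the 17 enzymes, the level was 1980, 2107 and 1989 FPKM in celastrol libraries, 2136, 2158 and 1985 FPKM in tMCAO libraries and 2136, 2050 and 1975 FPKM in sham libraries. The groups overlapped, and the tMCAO mean was 1.02 times the sham mean. These sums were 0.687% to 0.766% of all FPKM in a library. Gapdh enters the median, the order and the sums by its own row only, which is not a measure of the gene. Together with the rows of its pseudogenes, described below, it summed to 754 to 910 FPKM per library, above Aldoa. For the 16 enzymes other than Hk2, the log2 fold change of tMCAO against sham lay between -0.33 (the row of Gapdh) and 0.12 (Pfkl), with 4 positive and 12 negative. Their median of absolute log2 fold change was 0.07, against 0.18 over the 4448 genes tested with a mean of at least 10 FPKM, a limit that each of the 16 meets. Of the 16, 0 differed by at least 0.5 in log2, against 11.5% of those 4448 genes. Celastrol against tMCAO gave the same 16 enzymes a range of -0.34 (Ldha) to 0.24 (Aldoc).

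Hexokinase 2, the inducible form that binds mitochondria and commits glucose to the cell, was the enzyme outside this range. Hk2 had 12.9, 4.95 and 11.2 CPM in celastrol libraries, against 16.5, 10.2 and 12.7 CPM in tMCAO libraries and 4.01, 4.50 and 3.51 CPM in sham libraries. All tMCAO and all celastrol libraries lay above all sham libraries, with celastrol replicate 2 only just above, and the celastrol and tMCAO libraries overlapped. The log2 fold change of tMCAO against sham was 1.71 ± 0.35 (SE), with an unadjusted edgeR p of 0.000885 and an adjusted p of 0.125. Celastrol against sham gave 1.27 ± 0.35 (adjusted p 0.318, edgeR), and celastrol against tMCAO gave -0.44 ± 0.34 (adjusted p 0.976, edgeR). With celastrol replicate 2 left out of the fit, Hk2 passed the threshold in tMCAO against sham (log2 fold change 1.71, edgeR adjusted p 0.0309), as did 0.536% of all genes, and its log2 difference between celastrol and tMCAO became -0.13. That library enters tMCAO against sham only through the spread shared by all groups. Without tMCAO replicate 1 the log2 fold change of tMCAO against sham was 1.52, and without sham replicate 1 it was 1.71 (edgeR adjusted p 0.361 and 0.193). Hk2 was a minor transcript. It averaged 2.00 FPKM in tMCAO libraries and 0.571 FPKM in sham libraries, against 47.0 and 41.8 FPKM for Hk1, the constitutive brain hexokinase.

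**Figure D2:**
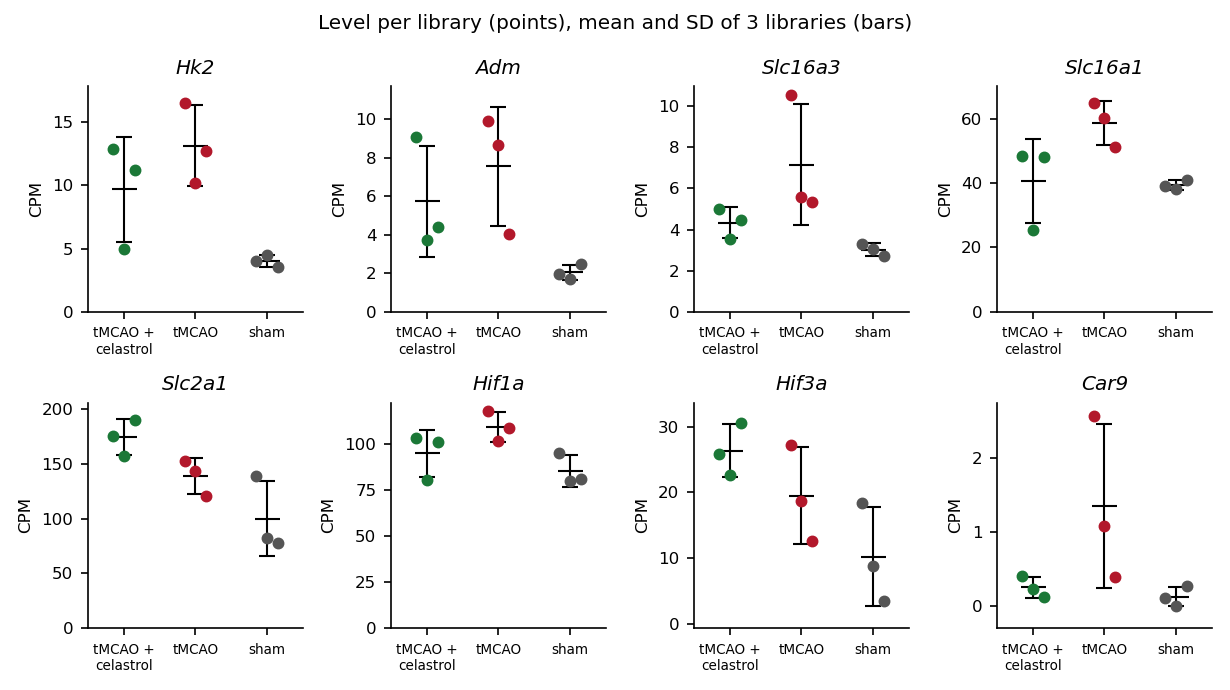
CPM of 8 genes in each library (points) with the mean and SD of the 3 libraries of a group (bars), for the celastrol, tMCAO and sham groups from left to right. For Hk2, Adm and Slc16a3 every tMCAO and celastrol point lies above every sham point, for Slc2a1 the celastrol points (157 to 190.0 CPM) lie above the tMCAO points (121 to 152 CPM), and for Car9 1 tMCAO library at 2.56 CPM stands above the rest.

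Enzymes that come as pairs of isoforms allow a ratio within a library, which does not depend on how libraries are scaled to each other. The ratio of Hk2 to Hk1 in FPKM was 0.0486, 0.0149 and 0.0386 in celastrol libraries, 0.0401, 0.0461 and 0.0435 in tMCAO libraries and 0.0132, 0.0163 and 0.0118 in sham libraries. Celastrol replicate 2 lay among the sham libraries, and all other occluded libraries lay well above them. The mean log2 ratio was 1.67 higher in tMCAO than in sham libraries (exact two-sided permutation test over libraries, p = 0.1, the smallest that 3 against 3 allows; adjusted p = 0.4 over 8 ratios). Hk1 itself had 378, 476 and 413 CPM in celastrol libraries, 587, 316 and 418 CPM in tMCAO libraries and 434, 395 and 425 CPM in sham libraries. The tMCAO libraries held both the highest and the lowest Hk1 value.

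Phosphofructokinase, which makes the committed step, is built from muscle (Pfkm), liver (Pfkl) and platelet (Pfkp) type subunits. Pfkm had 451, 556 and 432 CPM in celastrol libraries, 444, 448 and 402 CPM in tMCAO libraries and 478, 452 and 411 CPM in sham libraries. Pfkp had 344, 407 and 313 CPM in celastrol libraries, 491, 385 and 371 CPM in tMCAO libraries and 380, 434 and 459 CPM in sham libraries, and Pfkl 129, 145 and 152 CPM in celastrol libraries, 197, 171 and 143 CPM in tMCAO libraries and 137, 179 and 154 CPM in sham libraries. For each of the 3 subunits the celastrol and tMCAO libraries overlapped. Celastrol against tMCAO gave a log2 fold change of -0.26 ± 0.15 (SE) for Pfkl and -0.23 ± 0.15 for Pfkp, which did not pass (adjusted p 0.976 each, edgeR). As ratios in FPKM, Pfkp to Pfkm was 0.190, 0.182 and 0.180 in celastrol libraries, 0.275, 0.214 and 0.230 in tMCAO libraries and 0.198, 0.239 and 0.279 in sham libraries. Every celastrol library lay below every tMCAO and every sham library. The mean log2 ratio differed by -0.37 between celastrol and tMCAO libraries and by -0.36 between celastrol and sham libraries (exact permutation p = 0.1 and adjusted p = 0.4 for each). For Pfkl to Pfkm, the ratio was 0.143, 0.131 and 0.176 in celastrol libraries, against 0.222, 0.191 and 0.177 in tMCAO libraries, a log2 difference of -0.40 (exact permutation p = 0.1, adjusted p = 0.4). These groups did not overlap either, by a narrow margin. Pfkp shares part of its locus with Pitrm1, whose row held 11.7% as many counts.

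For aldolase, enolase and lactate dehydrogenase the ratios overlapped between all groups. The general form Aldoa had 1230.0, 1232 and 1222 CPM in celastrol libraries, 1237, 1269 and 1279 CPM in tMCAO libraries and 1187, 1322 and 1336 CPM in sham libraries. The 3 celastrol values lay just under the 3 tMCAO values, by a log2 fold change of -0.04 ± 0.09 (SE; edgeR adjusted p 0.988). Aldoc, the astrocyte form, had 692, 785 and 766 CPM in celastrol libraries, 628, 730 and 543 CPM in tMCAO libraries and 847, 604 and 545 CPM in sham libraries, and the sham libraries alone spanned nearly the whole range. The ubiquitous enolase Eno1 had 379, 480 and 449 CPM in celastrol libraries, 472, 443 and 449 CPM in tMCAO libraries and 474, 574 and 470 CPM in sham libraries. The neuronal enolase Eno2 had 560, 823 and 570 CPM in celastrol libraries, 602, 703 and 633 CPM in tMCAO libraries and 631, 729 and 675 CPM in sham libraries. Its highest value was in celastrol replicate 2, which also had the highest summed level of the 6 neuronal markers (1766 FPKM), and the part of neuronal RNA in that value was not tested. Ldha, the lactate-forming subunit and a classic HIF target, had 227, 233 and 239 CPM in celastrol libraries, 404, 215 and 266 CPM in tMCAO libraries and 223, 341 and 277 CPM in sham libraries. Its subunit partner Ldhb had 395, 504 and 370 CPM in celastrol libraries, 355, 466 and 362 CPM in tMCAO libraries and 499, 449 and 440 CPM in sham libraries. Ldha was highest in tMCAO replicate 1, with the groups overlapping, and its log2 fold change of tMCAO against sham was 0.07 ± 0.23 (SE; edgeR adjusted p 0.911).

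**Figure D3:**
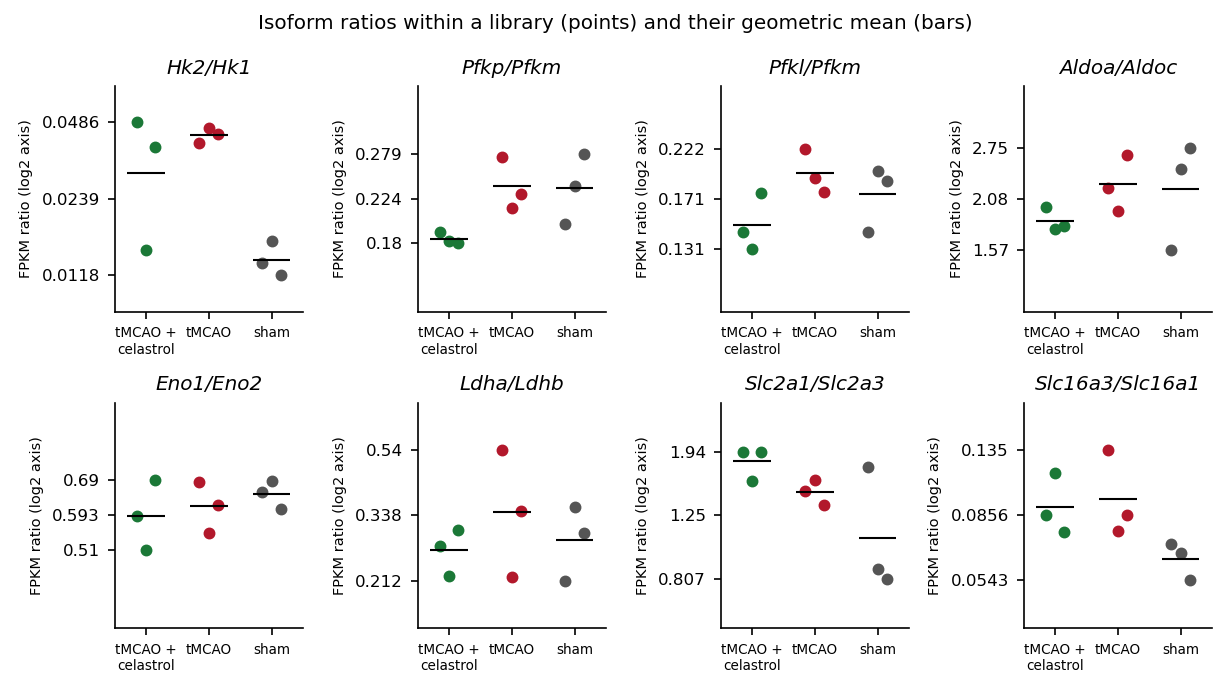
Ratio in FPKM between the 2 genes of each of 8 isoform pairs in each library (points) on log2 axes, with the geometric mean of each group (bars), for the celastrol, tMCAO and sham groups from left to right. The Hk2 to Hk1 ratio lies near 0.0401 to 0.0461 in tMCAO and 0.0118 to 0.0163 in sham libraries, the Pfkp to Pfkm ratio is lowest in the 3 celastrol libraries, and the Aldoa to Aldoc, Eno1 to Eno2 and Ldha to Ldhb points overlap.

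The other enzymes were Gpi1, Tpi1, Gapdh, Pgk1, Pgam1 and Pkm, which carry glucose phosphate through to pyruvate. Gpi1, Tpi1, Pgk1 and Pkm ranged over the 9 libraries from 68.6 to 83.7, 119 to 137, 164 to 221 and 188 to 228 FPKM, with overlap between the groups in CPM in every comparison. The phosphoglycerate mutase Pgam1 had 326, 368 and 312 CPM in tMCAO libraries, against 395, 395 and 371 CPM in sham libraries. These did not overlap in CPM, but in FPKM tMCAO replicate 2 and sham replicate 2 were equal at 167. The log2 fold change was -0.21 ± 0.13 (SE; edgeR adjusted p 0.491). Gapdh, which is often used as a standard for equal loading, stood at only 14.3 to 24.9 FPKM, and its row is not a measure of the gene. In the GENCODE M21 transcripts, 180 other rows of the table match it over at least 200 bases at 90% identity or more, 174 of them pseudogenes, and they held a mean of 70408 counts against 5234 in the row of Gapdh. The row took 6.01% to 11.1% of the counts of Gapdh and those pseudogenes together, with the highest share in sham replicate 3. The tMCAO to sham ratio of mean CPM was 0.795 for the row and 0.936 with the pseudogene rows added, an alternative chosen after seeing the data. Among the other 16 enzymes, near-identical rows held at most 13.8% as many counts (Eno1).

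The 4 transporters had positive log2 fold changes in tMCAO against sham, as had 8646 of the 16982 genes tested. They ran from 0.06 (Slc2a3) to 1.24 (Slc16a3), with a median of 0.53 against 0.01 over all genes tested. For Slc2a1 and Slc2a3 the tMCAO and sham libraries overlapped. None of the 4 passed in edgeR, and Slc16a3 alone passed in DESeq2. Slc16a3, the lactate exporter of glycolytic cells and a HIF target, had 5.02, 3.53 and 4.44 CPM in celastrol libraries, 10.6, 5.60 and 5.32 CPM in tMCAO libraries and 3.32, 3.06 and 2.70 CPM in sham libraries. The 3 groups did not overlap, with celastrol between tMCAO above and sham below. The log2 fold change of tMCAO against sham was 1.24 ± 0.30 (SE; edgeR p 0.00283, adjusted p 0.16), and that of celastrol against tMCAO was -0.72 ± 0.30 (edgeR p 0.0394, adjusted p 0.976). Without tMCAO replicate 1, the highest library, the log2 fold change of tMCAO against sham was 0.85. The difference between celastrol and tMCAO was then -0.34. The mean of Slc16a3 over the 9 libraries was 0.806 FPKM, so these values rest on a low level.

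Slc16a1, the carrier of lactate and ketone bodies in capillaries and glia, had 48.4, 25.5 and 48.2 CPM in celastrol libraries, 64.8, 60.2 and 51.2 CPM in tMCAO libraries and 39.1, 38.3 and 41.0 CPM in sham libraries. The tMCAO libraries lay above all others, and celastrol replicate 2 lay lowest of the 9. Its log2 fold change was 0.57 ± 0.23 (SE) in tMCAO against sham (edgeR p 0.0325, adjusted p 0.303) and -0.53 ± 0.23 in celastrol against tMCAO (edgeR p 0.0448, adjusted p 0.976). Without celastrol replicate 2 the difference between celastrol and tMCAO was -0.28. Within a library, the ratio of Slc16a3 to Slc16a1 in FPKM was 0.0856, 0.115 and 0.0764 in celastrol libraries, 0.135, 0.0770 and 0.0857 in tMCAO libraries and 0.0703, 0.0659 and 0.0543 in sham libraries. Both occluded groups lay above sham, with log2 differences of 0.61 for tMCAO and 0.53 for celastrol (exact permutation p = 0.1, adjusted p = 0.4 for each).

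The glucose carrier Slc2a1 had 176, 157 and 190.0 CPM in celastrol libraries, 152, 144 and 121 CPM in tMCAO libraries and 139, 82.3 and 78.0 CPM in sham libraries. The celastrol libraries were the highest, and sham replicate 1 lay among the tMCAO libraries, well above the other sham libraries. In log2, celastrol exceeded sham by 0.80 ± 0.22 (SE; edgeR p 0.00504, adjusted p 0.316), tMCAO exceeded sham by 0.48 ± 0.22 (adjusted p 0.347) and celastrol exceeded tMCAO by 0.33 ± 0.22 (adjusted p 0.976). The gap between celastrol and tMCAO libraries was present in CPM only. In FPKM, celastrol replicate 2 (37.4) lay under tMCAO replicate 1 (39.2). DESeq2 called Slc2a1 higher in celastrol than in sham libraries, with Hk2 and Adm, in a comparison where it called 1.85% of all genes higher. Slc2a3, the neuronal glucose carrier, had 187, 206 and 202 CPM in celastrol libraries, 213, 186 and 186 CPM in tMCAO libraries and 165, 196 and 200 CPM in sham libraries, and the groups overlapped. The ratio of Slc2a1 to Slc2a3 in FPKM was 1.94, 1.58 and 1.94 in celastrol libraries, 1.48, 1.60 and 1.34 in tMCAO libraries and 1.74, 0.869 and 0.807 in sham libraries, again with overlap.

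Markers of some other cell types also differed between the occluded and the sham libraries, as Hk2, Slc16a3 and Adm did. The summed level of 6 astrocyte markers was 352 to 522 FPKM in celastrol, 434 to 571 FPKM in tMCAO and 321 to 335 FPKM in sham libraries, and that of 5 endothelial markers was 37.1 to 65.3, 40.7 to 53.5 and 31.9 to 36.2 FPKM in celastrol, tMCAO and sham libraries. For 6 neutrophil markers, of which 2 passed the filter, it was 12.3 to 39.1 FPKM in celastrol, 9.94 to 23.4 FPKM in tMCAO and 0.674 to 2.84 FPKM in sham libraries. Elane was at 0 in every library and Ly6g at 0 in the sham libraries. Between celastrol and tMCAO, the summed levels of these 3 cell types overlapped, and that of 5 erythrocyte markers did not. The erythrocyte sum was 80.8 to 115 FPKM in celastrol, 127 to 688 FPKM in tMCAO and 198 to 358 FPKM in sham libraries. The summed levels for neurons, oligodendrocytes, microglia and macrophages, pericytes and smooth muscle, choroid plexus and ependyma overlapped between all groups. Some single markers in these lists had an unadjusted edgeR p under 0.05. In tMCAO against sham these were 3 of 6 for microglia and macrophages and 2 of 5 for pericytes and smooth muscle (14.9% of all genes tested). In celastrol against sham there were 2 in each of these lists and 2 for choroid plexus (8.51% of all genes tested). Choroid plexus markers varied widely within the occluded groups. They summed to 1321, 2.96 and 306 FPKM in celastrol, 188, 349 and 3.3 FPKM in tMCAO and 3.07 to 25.1 FPKM in sham libraries. The part of any of these cell types in the values of Hk2, Slc2a1, Slc16a1, Slc16a3 and Adm was not tested.

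Among the 3 regulators of flux, Pfkfb3, which makes the strongest activator of phosphofructokinase, differed most in tMCAO against sham. Pfkfb3 had 50.9, 38.5 and 27.7 CPM in celastrol libraries, 87.3, 45.4 and 38.3 CPM in tMCAO libraries and 43.4, 29.6 and 43.0 CPM in sham libraries. Apart from tMCAO replicate 1 the libraries of all groups overlapped. Its log2 fold change was 0.56 ± 0.34 (SE) in tMCAO against sham (edgeR adjusted p 0.471) and -0.55 ± 0.34 in celastrol against tMCAO (edgeR adjusted p 0.976), and without tMCAO replicate 1 these became 0.11 and -0.10. Its relative Pfkfb4 and the pyruvate dehydrogenase kinase Pdk1, which turns pyruvate away from the mitochondrion, ranged over the libraries from 1.11 to 3.57 FPKM and from 7.12 to 11.6 FPKM, with overlap in every comparison.

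Of the HIF targets, Adm stood out. Adm, which encodes the vasodilator peptide adrenomedullin, had 9.05, 3.74 and 4.39 CPM in celastrol libraries, 9.92, 8.68 and 4.05 CPM in tMCAO libraries and 1.98, 1.69 and 2.46 CPM in sham libraries. Every occluded library lay above every sham library, and the celastrol and tMCAO libraries overlapped. The log2 fold change was 1.89 ± 0.44 (SE) in tMCAO against sham (edgeR p 0.00203, adjusted p 0.143), 1.49 ± 0.43 in celastrol against sham (adjusted p 0.359) and -0.40 ± 0.42 in celastrol against tMCAO (adjusted p 0.976).

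Car9, the membrane carbonic anhydrase often used as a mark of hypoxic tissue, was close to the detection limit. It had 0.402, 0.221 and 0.119 CPM in celastrol libraries, 2.56, 1.08 and 0.387 CPM in tMCAO libraries and 0.0977, 0 and 0.259 CPM in sham libraries. The 3 tMCAO libraries were above the sham libraries, while tMCAO replicate 3 fell just under the highest celastrol library. Sham replicate 2 held 0 counts, which allows up to 3 counts (counting error only). With no filter on low values the log2 fold change of tMCAO against sham was 3.47 ± 1.12 (SE; edgeR adjusted p 0.359), and that of celastrol against tMCAO was -2.42 ± 1.05 (edgeR adjusted p 0.834).

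The remaining HIF targets differed less than Adm and Car9 between tMCAO and sham libraries. Bnip3, which marks mitochondria for removal, and the angiogenic factor Vegfa ranged over all libraries from 39.7 to 64.5 FPKM and from 7.06 to 12.6 FPKM, with log2 fold changes of tMCAO against sham of 0.22 ± 0.21 and -0.08 ± 0.25 (SE; edgeR adjusted p 0.651 and 0.904). Ankrd37, an ankyrin repeat protein induced through HIF, ranged from 1.61 to 3.25 FPKM with a log2 fold change of 0.44 ± 0.28 (SE; edgeR adjusted p 0.499). In FPKM its tMCAO libraries (1.98, 2.96 and 2.76) lay above its sham libraries (1.72, 1.61 and 1.96), but in CPM the groups overlapped. Its locus overlaps that of Ufsp2 on the other strand, whose mean of 2644 counts exceeded the 269 of Ankrd37, and reads of the 2 cannot be told apart without strand.

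For oxygen sensing, Hif1a had 103, 80.1 and 101 CPM in celastrol libraries, 118, 101 and 108 CPM in tMCAO libraries and 94.9, 79.6 and 81.0 CPM in sham libraries. The tMCAO libraries lay above the sham libraries, by 1.28-fold in the fit, and the celastrol libraries reached into both. The log2 fold change was 0.36 ± 0.13 (SE) in tMCAO against sham (edgeR p 0.0222, adjusted p 0.271), 0.15 ± 0.13 in celastrol against sham (adjusted p 0.814) and -0.20 ± 0.13 in celastrol against tMCAO (adjusted p 0.976). Epas1, the alpha subunit typical of endothelium and glia, had 210, 170 and 209 CPM in celastrol libraries, 195, 170 and 170 CPM in tMCAO libraries and 188, 157 and 148 CPM in sham libraries, with overlap throughout. Celastrol against sham gave it a log2 fold change of 0.26 ± 0.13 (SE; edgeR adjusted p 0.647).

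Hif3a, whose splice forms can restrain the other alpha subunits, had the largest ratio of highest to lowest FPKM (9.46) among the 12 regulators that passed the filter. It had 25.8, 22.7 and 30.6 CPM in celastrol libraries, 27.2, 18.7 and 12.6 CPM in tMCAO libraries and 18.4, 8.75 and 3.43 CPM in sham libraries. The celastrol libraries lay above the sham libraries, and the tMCAO libraries overlapped both. The log2 fold change of celastrol against sham was 1.37 ± 0.52 (SE; edgeR p 0.0286, adjusted p 0.501), and that of tMCAO against sham was 0.93 ± 0.52 (edgeR adjusted p 0.436). Sham replicate 1, which was also the highest sham library for Slc2a1 and Epas1, was far above the other sham libraries. Without it the log2 fold change was 2.11 in celastrol against sham and 1.68 in tMCAO against sham, and without tMCAO replicate 1 it was 0.61 in tMCAO against sham. The hydroxylases Egln1 and Egln3 ranged over all libraries from 18.7 to 25.1 FPKM and from 2.69 to 5.05 FPKM, with overlap in every comparison.

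**Figure D4:**
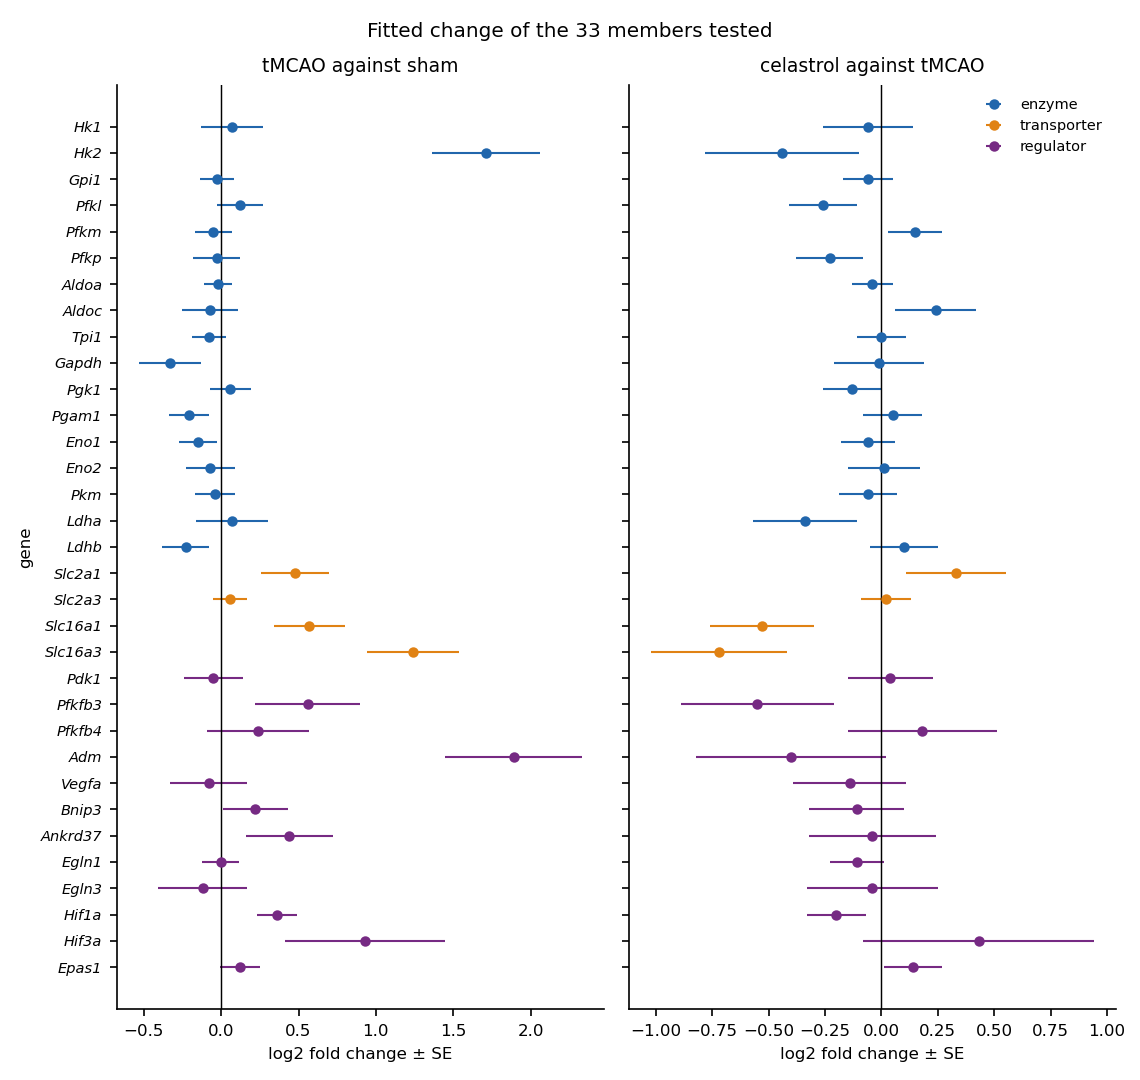
Log2 fold change with its SE (horizontal axis, edgeR) of the 33 genes tested, coloured by role, for tMCAO against sham (left) and celastrol against tMCAO (right). In the left panel Adm (1.89), Hk2 (1.71) and Slc16a3 (1.24) lie farthest right while the other 16 enzymes lie between -0.33 and 0.12; in the right panel Slc16a3 (-0.72), Pfkfb3 (-0.55) and Slc16a1 (-0.53) lie farthest left.

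The roles are set side by side here without a test of the difference between them. In tMCAO against sham the median log2 fold change was -0.04 over 17 enzymes, 0.53 over 4 transporters, 0.23 over 12 tested regulators and 0.01 over all 16982 genes. Of the regulators 3 (25%) and of the enzymes 1 (5.88%) differed by at least 0.5 in log2 in either direction, against 22.1% of all genes. The roles also differed in level and noise: the median of mean FPKM was 119 for enzymes and 5.26 for regulators, and the median SD within a group was 0.19 and 0.33 in log2 CPM. Genes of low level differ more in general, since 25.9% of the 12534 genes under 10 FPKM reached 0.5 in log2. Of the 7 tested regulators under 10 FPKM, 3 did so (Adm, Hif3a and Pfkfb3). In celastrol against tMCAO the medians were -0.06 for enzymes, -0.25 for transporters, -0.08 for regulators and 0.00 for all genes. In celastrol against sham they were -0.09 for enzymes, 0.30 for transporters, 0.13 for regulators and 0.00 for all genes.

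**Figure D5:**
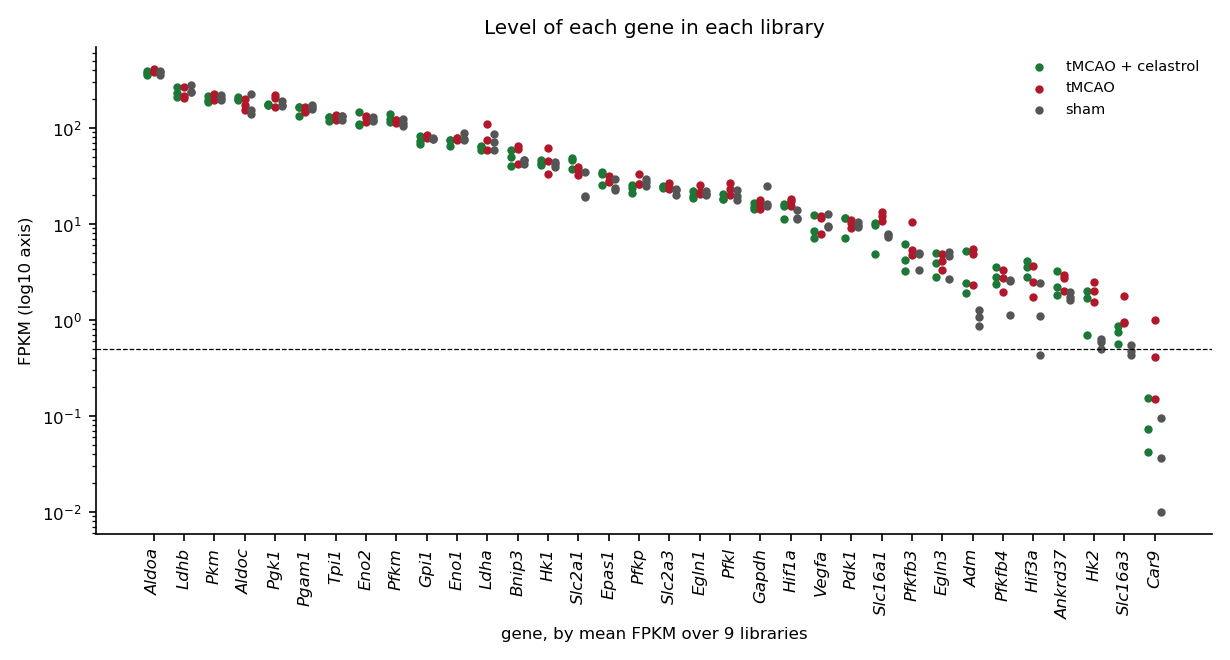
FPKM of each gene (log10 axis) in the 9 libraries, ordered by mean level, with the filter value of 0.5 FPKM as a dashed line; a value listed at or near 0 (Car9, sham replicate 2) is drawn at 0.01. Enzymes fill the upper end, from Aldoa at 381 FPKM, and Hk2, Slc16a3 and Car9 lie at the lower end, where the tMCAO libraries lie above the sham libraries.

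In the comparison of celastrol with tMCAO, which asks what the drug changed in the occluded hemisphere, 0 of 33 genes passed the adjusted threshold in edgeR (0% of all genes called) or in DESeq2 (0.0707% of all genes higher and 0.0412% lower). At an unadjusted edgeR p under 0.05 the 2 lactate carriers, Slc16a3 and Slc16a1, were lower in celastrol than in tMCAO libraries. They are 6.06% of the 33 genes, against 1.86% of all genes lower and 4.11% in either direction. In CPM, Slc2a1 had all celastrol libraries above all tMCAO libraries (3.73% of all genes did), and Slc16a3, Slc16a1 and Aldoa had them below (4.13% did). Of the 33 fold changes, 11 were positive and 22 negative, against 8375 and 8607 over all genes tested.

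Celastrol against sham showed the genes that stood apart from sham with the drug. None passed in edgeR (0.00589% of all genes called). At an unadjusted edgeR p under 0.05, Hk2, Adm, Slc2a1 and Hif3a were higher in celastrol libraries and 0 were lower, together 12.1%, against 5.69% of all genes higher and 8.51% in either direction. In CPM the celastrol libraries lay above the sham libraries for Hk2, Hif3a, Slc16a3, Slc2a1 and Adm (7.89% of all genes did). When both occluded groups were joined, Hk2, Slc16a3 and Adm had all 6 occluded libraries above all sham libraries, as had 4.20% of all genes. In that comparison 0 of 33 passed in edgeR (0.0118% of all genes called; Hk2 alone, with 1.18% of all genes, without celastrol replicate 2), and DESeq2 called 4 higher (Hk2, Slc16a3, Slc2a1 and Adm; 3.51% of all genes).

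Genes next to the path were read from 6 lists. Of their 81 tested genes other than those described above, 0 passed in edgeR in any comparison. In tMCAO against sham, 15 had an unadjusted edgeR p under 0.05, a larger share than the 14.9% of all genes tested. In celastrol against sham 9 did, also a larger share than the 8.51% of all genes. In celastrol against tMCAO 2 did, a smaller share than the 4.11% of all genes. The lists were not tested as sets. In tMCAO against sham DESeq2 called 3 of the 81 higher, Hmox1 and Lox among them, where it called 3.28% of all genes higher. It called 2 lower, Slc16a7 and Ugp2. In celastrol against sham it called 4 higher, Hmox1, Lox and Pdk4 among them, where it called 1.85% of all genes higher. It called 1 lower, Ugp2. The share of all genes called lower is not given here for these 2 comparisons. In celastrol against tMCAO it called 0. Of 24 further HIF targets, 23 were in the table and 21 were tested. Their median log2 fold change of tMCAO against sham was 0.37, against 0.01 over all genes. Of the 21, 5 were higher at an unadjusted edgeR p under 0.05, a larger share than the 8.56% of all genes tested. Hmox1, the heme-degrading enzyme, had 86.7, 7.03 and 23.0 FPKM in celastrol libraries, 55.4, 14.8 and 92.4 FPKM in tMCAO libraries and 2.81, 2.24 and 2.34 FPKM in sham libraries. All 6 occluded libraries lay above the sham libraries, with celastrol replicate 2 nearest to them. Its log2 fold change of tMCAO against sham was 4.35 ± 0.93, and that of Lox, which cross-links collagen, was 3.34 ± 1.0 (SE; edgeR adjusted p 0.128 and 0.208). Lox had 5.75, 0.655 and 0.841 FPKM in celastrol libraries, 2.62, 0.349 and 0.769 FPKM in tMCAO libraries and 0.162, 0.0911 and 0.0915 FPKM in sham libraries, and without tMCAO replicate 1, the highest tMCAO library, its log2 fold change was 2.16.

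Of 22 genes of pyruvate dehydrogenase and the citrate cycle, the median log2 fold change of tMCAO against sham was -0.05. Pdk4, the kinase that shuts pyruvate dehydrogenase, had the smallest p. It had 7.79, 5.20 and 5.80 FPKM in celastrol libraries, 4.73, 5.29 and 3.39 FPKM in tMCAO libraries and 2.82, 1.87 and 3.04 FPKM in sham libraries. Both occluded groups lay above sham, and celastrol against sham gave a log2 fold change of 1.22 ± 0.24 (SE; edgeR p 0.000705, adjusted p 0.166). Of 12 glycogen genes, with a median of -0.06, Ugp2, which makes the glucose donor for glycogen, was lower in both occluded groups. It had 17.7, 16.9 and 17.7 FPKM in celastrol libraries, 17.8, 19.2 and 20.4 FPKM in tMCAO libraries and 20.6, 24.3 and 25.0 FPKM in sham libraries, with log2 fold changes of -0.48 ± 0.11 for celastrol and -0.38 ± 0.11 for tMCAO (SE; edgeR adjusted p 0.253 and 0.199). The glycogen branching enzyme Gbe1 and the phosphoglucomutase Pgm2 were higher in tMCAO libraries by 0.63 ± 0.19 and 0.72 ± 0.25 in log2 (SE; edgeR adjusted p 0.208 and 0.255).

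Of 7 genes of the pentose phosphate path, which makes NADPH from glucose (median 0.19), the dehydrogenases Pgd and G6pdx were higher in tMCAO than in sham libraries by 0.71 ± 0.24 and 0.48 ± 0.17 in log2 (SE; edgeR adjusted p 0.243 and 0.256). Among 13 tested other glycolytic and lactate genes (median 0.03), the neuronal lactate carrier Slc16a7 was lower in tMCAO libraries by a log2 fold change of -0.89 ± 0.27 (SE; edgeR adjusted p 0.208), at a level under 1 FPKM in every library. Of 11 oxygen-sensing genes, which include the 5 named above and had a median of -0.03 in tMCAO against sham, Arnt, the beta subunit that HIF binds DNA with, and Hif1an, an asparagine hydroxylase that restrains HIF, were higher in celastrol than in tMCAO libraries by 0.34 ± 0.13 and 0.34 ± 0.14 in log2 (SE; edgeR adjusted p 0.976 each).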

How the data were processed

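The authors deposited 1 table for 9 libraries with 55385 gene rows, holding FPKM and estimated counts (whole numbers). The submitters' processing notes list StringTie 1.3.4d, HISAT2 2.0.4, cutadapt 1.9, DESeq2, edgeR and the mm10 build; the sources used here give neither settings nor strand. Per the labels' protocols, 5 µg of RNA was depleted of ribosomal RNA and read as 150 bp pairs. Genes of at least 0.5 FPKM in 3 or more libraries (16982) entered 1 edgeR 4.0.16 quasi-likelihood fit of the deposited counts (R 4.3.3, TMM, 1 mean per group, two-sided), with Benjamini-Hochberg adjustment over all genes and a threshold of 0.05. The SE is the log2 fold change over the root of F. CPM uses TMM library sizes. Alternatives were DESeq2 1.42.0, limma 3.58.1, other filters and scalings, a replicate block and leaving out each library. The scripts were tested on simulated data. The genes, the lists and the rules were chosen with earlier results of these data known. The rule for named genes took the 6 smallest unadjusted p in each of tMCAO against sham and celastrol against tMCAO, the isoform pairs, Hif1a and Epas1, and up to 3 genes per list by smallest unadjusted p; 1 gene it named is not reported here. Near-identical copies were found with BLAST 2.17.0 on GENCODE M21 transcripts. Counting error at this depth (60392960 to 75158625 counts) is small beside the spread between libraries, and a count of 0 allows 3 counts.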

Additional observations from a re-analysis of the deposited data

How the results depend on the processing

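The number of the 33 genes called was 0 in every comparison with edgeR and stayed 0 with other size factors, other filters, limma, the newer quasi-likelihood form and, for the 3 comparisons between pairs of groups, fits of only the 2 groups compared. DESeq2 called 3 in tMCAO against sham, 3 in celastrol against sham and 4 in the 6 occluded libraries against sham; fits without 1 library called 0 to 1, the 1 being Hk2 without celastrol replicate 2. The cause was not tested. The median log2 fold change of the regulators in tMCAO against sham, 0.23, was 0.34 with limma on log2(FPKM + 0.1) and 0.10 to 0.31 without 1 library, lowest without tMCAO replicate 1; with the 6 occluded libraries it was 0.22, and 0.12 to 0.32 without 1 library. The medians of the enzymes stayed between -0.16 and 0.05 under all alternatives. Of 42 values recomputed for single genes, 0 changed sign. Most of these genes were chosen for a small unadjusted p in these same data, so their signs had little room to change. Of the alternative values 15 passed the threshold and 720 did not. Replicate numbers showed no clear pairing of the libraries. The correlation was -0.156 to 0.198 for same-numbered and -0.264 to 0.227 for differently numbered libraries of 2 groups. Whether same-numbered libraries share a batch was not tested. With the replicate number as a block, 0 of the 33 genes were called and the regulators' median was 0.21, while 51 genes of the table were called in tMCAO against sham, 22 in celastrol against sham and 64 in the 6 occluded libraries against sham. With at least 1 FPKM as filter, Slc16a3 was not tested. Depth limits Car9, at 0 to 15 counts in the sham libraries.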
